A study of Homo sapiens with 6 samples.

Results

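The transcripts of the Rab GTPases were examined in MCF-10A cells with and without ectopic CRB3, on 6 Affymetrix U133 Plus 2.0 arrays. Members were all probe sets whose platform annotation gives a single gene symbol of the form RAB, a number and at most 1 letter. The rule found 138 probe sets of 57 genes, among 54613 probe sets and 19775 genes in all, and RefSeq lists each of the 57 as protein-coding. Another 11 probe sets name a Rab gene beside other genes and were left out. They include the bright probe sets of RAB6A, so that RAB6A is read here only from a dim one. RAB34 is named only on such shared probe sets and is no member. Each gene was read in its brightest probe set (mean of all 6 arrays), and 35 of the genes have 2 or more, up to 7 for RAB7A.

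MCF-10A is a non-transformed human mammary epithelial cell line. All 6 cultures were infected with a retrovirus and selected with puromycin: 3 carried the pNG vector with Crb3 and 3 the empty pNG vector, and both were harvested as dividing monolayers at 70% confluence in normal growth medium. CRB3 is the apical polarity protein Crumbs3, here driven from a viral vector, so its level is not that of a cell type. The RNA was isolated in triplicate, and whether each replicate was infected separately is not given in the sources used here. The p-values below therefore measure only how far these samples spread, which may be technical.

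Rab proteins are small GTPases of the Ras superfamily that give each membrane compartment its identity. Bound to GTP they sit on a membrane through prenyl groups at the carboxyl terminus and recruit effectors such as motors, tethers and kinases, and after GTP hydrolysis they are drawn off the membrane by GDI. In epithelia the Rab11 subfamily serves the apical recycling endosome, Rab5 the early endosome, Rab7 the late endosome, and Rab3 and Rab27 the release of secretory granules. The study asked how CRB3 alters growth and endocytic vesicles, which makes the transcripts of this family one place to look.

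The labels were first checked on CRB3 itself. Its log2 value was 12.16, 12.00 and 12.19 on the CRB3-expressing arrays and 7.90, 7.59 and 7.85 on the vector control arrays, which is 20.1-fold higher (limma adjusted p = 1.83e-07). Array medians lay between 5.84 and 5.88, and Pearson's r between arrays, across probe sets, between 0.994 and 0.998. Vector control replicate 1 was brighter in its hybridization controls, with a mean of 11.33 where the other 5 arrays had 10.89 to 11.08. Of the epithelial markers KRT5, KRT14, KRT18, CDH1, EPCAM, LAMB3, ITGB4 and CDH3, all 8 had mean log2 values between 9.97 and 13.60, and KRT14 and CDH1 were called higher. Their summed linear level was 43398 to 45036 on the CRB3-expressing arrays and 36326 to 36700 on the vector control arrays. Of 6 fibroblast markers, 4 had means under 6 and DCN was called lower (summed level 501 to 529 against 589 to 612), and 0 of the 4 leukocyte and 0 of the 4 endothelial markers were called. The leukocyte marker PTPRC stood at 4.19 and 4.16 (CRB3-expressing and vector control means), and the endothelial marker CDH5 at 4.15 and 4.16. Both are the dimmest of their lists. The leukocyte marker CD14 stood at 8.27 and 8.32, and the endothelial markers PECAM1 at 6.55 and 6.61 and VWF at 6.18 and 6.10. Among the fibroblast markers COL1A1 stood at 8.02 and 8.01. The part of these shifts in the values below was not tested.

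The Rab genes as a whole differed little between the groups. A gene was called where its adjusted p was under 0.05 and its level differed by more than 1.5-fold. Of the 57 Rab genes, 0 were called higher, 1 was called lower and 56 were not called. The unadjusted p from limma was under 0.05 for 10 genes with higher values (17.5%, against 10.4% of all genes) and 5 with lower values (8.77%, against 8.39% of all genes), so the lower share is near that of all genes. The shares of all genes, here and below, are not matched for level. Means were under 6 for 7468 of the 19775 genes and 8 of the 57 Rab genes, with median levels of 6.92 and 8.46. What this adds to the differences in share was not tested. In bulk RNA, fewer cells that make a transcript and less of it per cell cannot be told apart. Over all genes, 1.43% were called higher and 0.465% lower, so the share of Rab genes called lower, 1.75%, is a single gene. Over probe sets, 0 of 138 were called higher and 2 lower, against 0.948% and 0.363% of all probe sets, and both belong to that gene, RAB7B. The median log2 fold change of the Rab genes was 0.032, and that of all genes 0.0066.

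Without the fold threshold, 3 Rab genes were higher (5.26%, against 3.37% of all genes) and 4 lower (7.02%, against 1.77% of all genes). The 3 were RAB32, RAB5B and RAB25, and the 4 were RAB7B, RAB31, RAB27B and RAB38. Apart from RAB7B, each of these had an adjusted p of 0.05 or more in 3 to 6 of the 6 fits that left out 1 array. The CRB3-expressing and vector control arrays did not overlap for 14 Rab genes on the high side (24.6%) and 8 on the low side (14.0%), where all genes gave 14.5% and 12.1%. The log2 fold change was smaller than 0.1 in size for 27 of the genes, from 0.1 to under 0.3 for 23, and at least 0.3 for 7.

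In the brightest probe sets, the spread of these samples was small enough to bound most of the family. The SE of a log2 fold change was between 0.057 and 0.17, with a median of 0.067. For 53 of the 56 genes that were not called, the 95% interval of the fold change lay within 1.5-fold in either direction. The exceptions were RAB32, whose interval reached a 1.5-fold rise, and RAB31 and RAB11B, whose intervals reached a 1.5-fold fall. Dimmer probe sets of other genes could reach further. A probe set of RAB2A had a 95% interval of -0.29 to 1.06 on the log2 scale, and a probe set of RAB30 0.013 to 0.72. Of the 57 genes, 8 had mean log2 values under 6, a level at which signal above background is not shown, and the difference of such a probe set may understate the change.

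**Figure D1:**
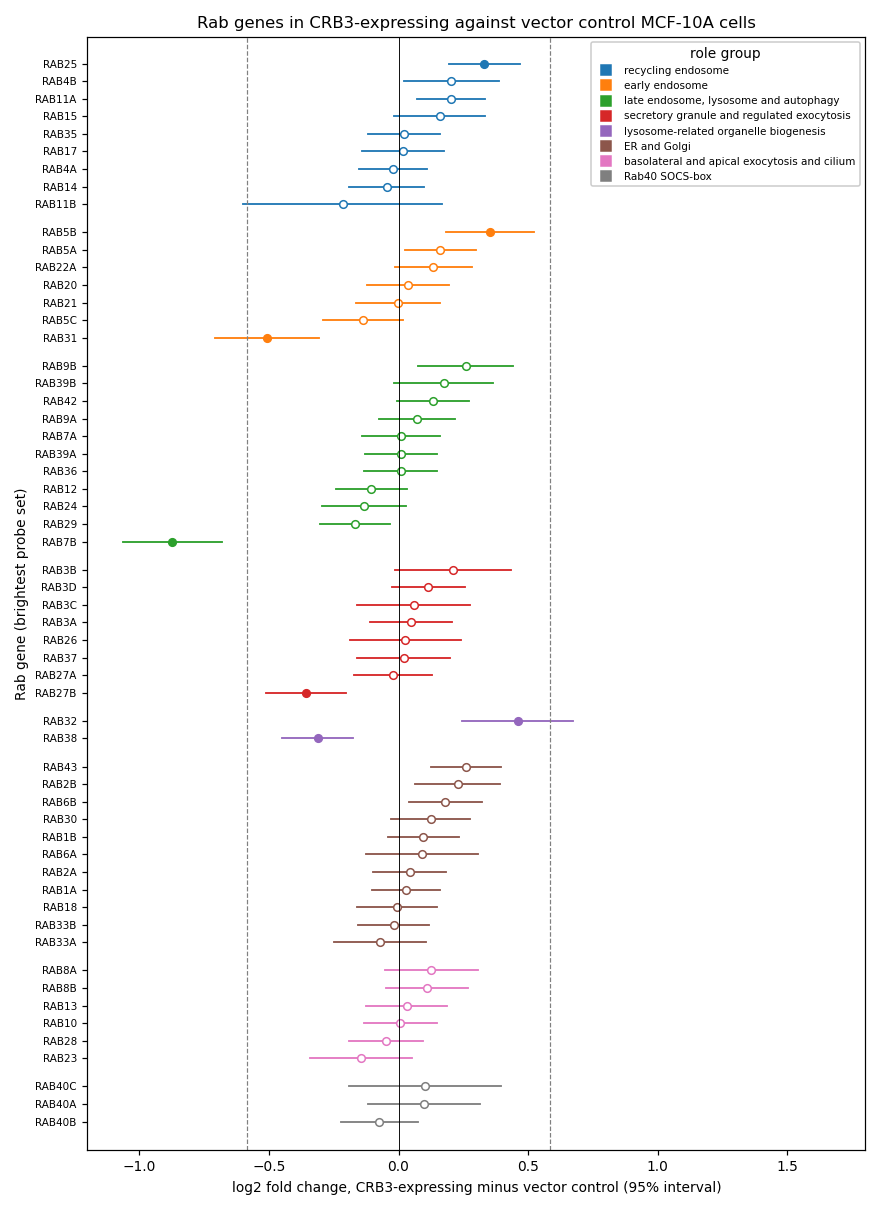
Log2 fold change (x axis, CRB3-expressing minus vector control) of the 57 Rab genes (y axis), each in its brightest probe set and coloured by role group; lines are 95% intervals, filled points have an adjusted p under 0.05 from limma, and dashed lines mark a 1.5-fold change. RAB7B is the gene beyond a dashed line, at -0.87, and RAB32 and RAB38 of the same role group lie on opposite sides of 0.

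RAB7B, a late endosomal and Golgi Rab related to RAB7A, was lower in CRB3-expressing cells. Its brightest probe set read 6.66, 6.74 and 6.91 on the CRB3-expressing arrays and 7.75, 7.56 and 7.63 on the vector control arrays. The highest CRB3-expressing array lay well under the lowest vector control array. RAB7B fell by 0.87 on the log2 scale (SE 0.085, 95% interval -1.06 to -0.68, limma adjusted p = 0.000541), a level 1.83-fold lower. The second RAB7B probe set read 6.28, 6.83 and 6.78 against 7.39, 7.66 and 7.54, and fell by 0.90 (SE 0.14, limma adjusted p = 0.00852). Both probe sets of the gene thus gave the same direction and nearly the same size. When each probe set kept its own variance, without empirical Bayes moderation, RAB7B had an adjusted p of 0.0517 and was not called.

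RAB7A, the Rab that directs maturation of late endosomes and their fusion with lysosomes, had values of 10.73, 10.60 and 10.65 in CRB3-expressing cells and 10.59, 10.64 and 10.71 in vector control cells. The groups overlapped fully, with a log2 fold change of 0.0095 (SE 0.066, 95% interval -0.14 to 0.16), whose sign turned when the arrays were median-centred, and without CRB3-expressing replicate 1 or vector control replicate 1. The log2 fold changes of its other 6 probe sets ran from -0.12 to 0.22, and none was called. Set against each other within each array, the pair shifted: RAB7B minus RAB7A, on the log2 scale, was between -4.07 and -3.73 in CRB3-expressing cells and between -3.09 and -2.85 in vector control cells.

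The sequences around the starts of both genes are shown because their CpG content is unlike in the reference. The windows run from 250 bases before to 50 bases after a RefSeq start (GRCh38.p14), 5′ to 3′ on the gene's strand, and capitals mark each CpG, searched as the letters CG, which read the same on both strands. RefSeq gives RAB7B 2 starts on the minus strand of chromosome 1, with windows at chr1:206003346-206003645 and chr1:205994408-205994707, and RAB7A 1 start on the plus strand of chromosome 3, with a window at chr3:128725933-128726232.
RAB7B, first start: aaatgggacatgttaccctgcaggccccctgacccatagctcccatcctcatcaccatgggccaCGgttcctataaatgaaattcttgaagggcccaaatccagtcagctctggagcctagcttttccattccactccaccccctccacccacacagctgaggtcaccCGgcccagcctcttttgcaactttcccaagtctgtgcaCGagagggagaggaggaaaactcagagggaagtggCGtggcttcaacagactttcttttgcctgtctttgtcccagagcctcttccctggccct
RAB7B, second start: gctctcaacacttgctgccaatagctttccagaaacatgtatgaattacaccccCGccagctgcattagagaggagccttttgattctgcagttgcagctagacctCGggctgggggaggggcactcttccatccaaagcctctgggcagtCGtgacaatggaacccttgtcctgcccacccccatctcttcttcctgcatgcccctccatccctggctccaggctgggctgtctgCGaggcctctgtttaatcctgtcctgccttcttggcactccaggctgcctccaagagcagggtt
RAB7A: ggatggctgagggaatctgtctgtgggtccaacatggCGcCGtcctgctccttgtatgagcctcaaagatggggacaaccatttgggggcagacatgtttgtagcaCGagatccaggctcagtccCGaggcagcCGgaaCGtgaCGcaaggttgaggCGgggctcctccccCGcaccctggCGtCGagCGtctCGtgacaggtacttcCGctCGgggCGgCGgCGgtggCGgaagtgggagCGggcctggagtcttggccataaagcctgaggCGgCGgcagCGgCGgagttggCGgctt

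Each RAB7B window holds 4 CpG, at 55.0% and 57.0% G and C, and the RAB7A window holds 25, at 65.0%. Windows with at most 4 CpG make up 12.5% of the 64 windows found for 45 of the Rab genes, and 29.6% of the 35116 windows of all genes. The other genes with an adjusted p under 0.05 shared no such count. Their windows hold 52 CpG in RAB31, 45 in RAB32, 16 and 17 in RAB5B, 9 in RAB25, and 6 and 17 in RAB27B. RAB38 was not among the windows used here. No methylation was measured in these cells, and these counts describe the reference only.

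In RefSeq order RAB7B lies between SLC26A9 and CTSE. Of the 10 nearest measured genes, 5 on each side, none was called. Their log2 fold changes lay between -0.17 and 0.24, the lowest being that of RAB29, another Rab gene 4 measured genes away. RAB29, a regulator of lysosomes and of the kinase LRRK2, had an adjusted p of 0.196 from limma. The neighbours were chosen after the RAB7B value was seen.

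The recycling endosome group held 9 genes, of which 0 were called. In the brightest probe sets 6 had positive log2 fold changes, where 10349 of all 19775 genes did. RAB25, the epithelial member of the Rab11 subfamily, read 7.04, 7.00 and 7.07 in CRB3-expressing cells and 6.66, 6.72 and 6.74 in vector control cells. The groups did not overlap. The log2 fold change was 0.33 (SE 0.060, limma adjusted p = 0.0178). At 1.26-fold it did not reach the fold threshold, and RAB25 has 1 probe set.

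RAB11A, the widely expressed Rab of recycling endosomes, read 12.36, 12.40 and 12.36 against 12.17, 12.15 and 12.20. Its groups did not overlap either, at a log2 fold change of 0.20 (SE 0.058, limma adjusted p = 0.115), and its other probe sets gave 0.18 and 0.13. RAB11B, the third member of the subfamily, varied more, with 7.57, 7.47 and 7.91 in CRB3-expressing cells and 8.10, 7.48 and 8.03 in vector control cells. Its groups overlapped, its log2 fold change was -0.22 (SE 0.17), and its 95% interval, -0.60 to 0.17, was the widest in the family.

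RAB4A, which returns receptors quickly from early endosomes, and RAB14, which acts between the Golgi and endosomes, had log2 fold changes of -0.021 (95% interval -0.15 to 0.11) and -0.045 (95% interval -0.19 to 0.10). RAB17, an epithelial Rab of apical recycling, had one of 0.017 (95% interval -0.14 to 0.17), which turned negative without CRB3-expressing replicate 2 or 3. All 3 intervals lie within a 1.5-fold change in either direction. RAB4B, a relative of RAB4A, had 0.20 (SE 0.081) with groups that did not overlap, and did not pass the adjustment (limma adjusted p = 0.257). RAB35, a Rab of endosome recycling and cytokinesis, had 0.021 (SE 0.062) and RAB15, of early and recycling endosomes, 0.16 (SE 0.077). The other RAB15 probe set had -0.16 (SE 0.086), so the direction of RAB15 is not settled.

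Of the 7 early endosome genes, 0 were called, and 2 had an adjusted p under 0.05 in opposite directions. That is 14.3% higher and 14.3% lower, each a single gene, against 3.37% and 1.77% of all genes. RAB5B, which drives fusion of early endosomes together with RAB5A and RAB5C, read 9.73, 9.75 and 9.71 in CRB3-expressing cells and 9.26, 9.50 and 9.37 in vector control cells. All CRB3-expressing arrays lay above all vector control arrays, and they lay closer to each other (SD 0.024 against 0.12, n = 3). The log2 fold change of RAB5B was 0.35 (SE 0.074, limma adjusted p = 0.0373), or 1.28-fold.

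RAB5A had a log2 fold change of 0.16 (SE 0.060, limma adjusted p = 0.226) and RAB5C one of -0.14 (SE 0.067, limma adjusted p = 0.365). For both the groups did not overlap in the brightest probe set, RAB5A being higher and RAB5C lower in CRB3-expressing cells. Neither passed the adjustment in the main fit. In their other probe sets the groups overlapped, with 0.085 and 0.090 for RAB5A and -0.035 for RAB5C. RAB21, which traffics integrins, and RAB22A, a Rab of early and recycling endosomes, gave -0.0015 and 0.13. RAB21 changed sign under quantile normalization, with array weights and without CRB3-expressing replicate 2 or 3 or vector control replicate 2 or 3. RAB22A changed sign when all probe sets of the gene were averaged. The other RAB21 probe sets lay between -0.21 and -0.062. Those of RAB22A gave -0.013 and -0.19, so the direction of RAB22A is not settled.

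RAB31, a Rab of the trans-Golgi network and endosomes close to RAB22A, read 5.73, 6.03 and 5.80 in CRB3-expressing cells and 6.30, 6.33 and 6.44 in vector control cells. The groups did not overlap, and CRB3-expressing replicate 2 lay nearest the vector control arrays. The log2 fold change was -0.51 (SE 0.089, limma adjusted p = 0.0152), 1.42-fold lower and under the fold threshold. Without CRB3-expressing replicate 2 it was -0.60 (limma adjusted p = 0.00792), and RAB31 was then called lower. Its other 2 probe sets gave -0.21 and -0.16, not called, and all 3 had group means under 6.4, so the size of the difference is uncertain.

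**Figure D2:**
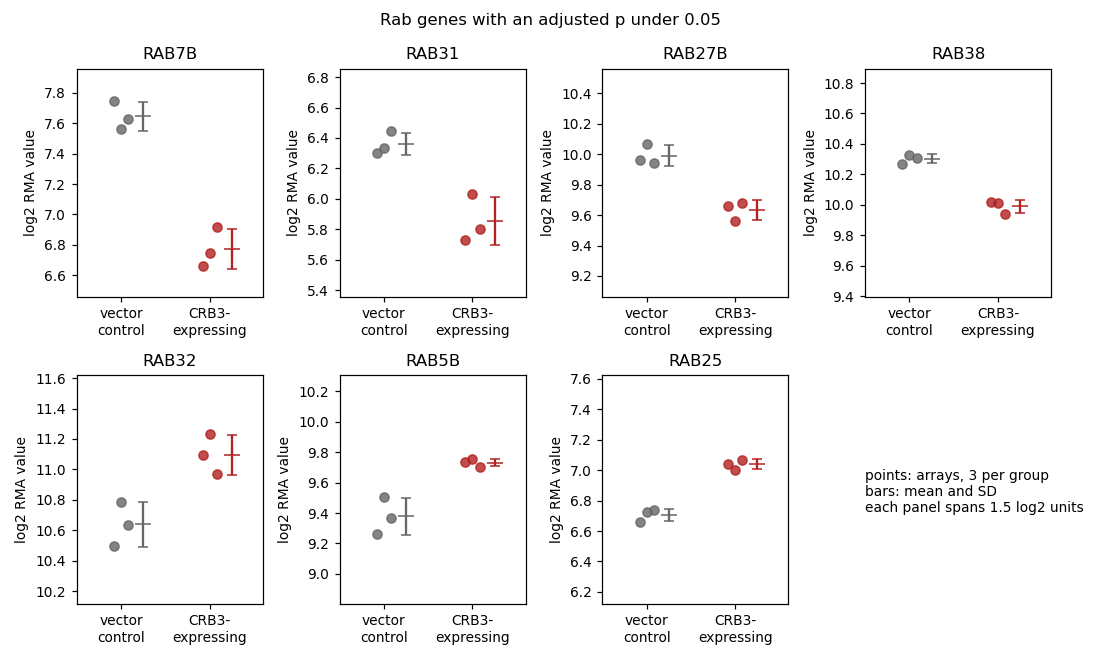
Log2 RMA value (y axis, each panel spanning 1.5 log2 units) of the 7 Rab genes with an adjusted p under 0.05 on each vector control array (grey) and CRB3-expressing array (red); each point is an array, and bars show means with SD (n = 3). In no panel do the groups overlap, and the gap is widest for RAB7B, at 7.65 against 6.77.

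Among the late endosome, lysosome and autophagy Rabs, RAB7B was the 1 gene called of 11, and the other 10 were not. This single gene makes 9.09% called lower, against 0.465% of all genes. RAB9A, which serves retrieval from late endosomes to the Golgi, gave 0.071 on the log2 scale (SE 0.064). RAB9B, its close relative, had 0.26 (SE 0.081, limma adjusted p = 0.143). RAB24, linked to autophagy, had -0.13 (SE 0.072) and RAB12, linked to degradation of receptors, -0.11 (SE 0.061). The groups of both did not overlap, on the low side, as for RAB29, but none of these passed the adjustment. Of the 3 RAB12 probe sets, others had -0.26 and 0.26, so its direction is not settled. The 2 genes of this group with means under 6 were RAB39A and RAB39B. The transcripts of the markers stained in the study for these compartments were not called. EEA1, an early endosome tether that binds Rab5, had -0.13 (SE 0.12). The lysosomal membrane protein LAMP2 had -0.14 (SE 0.066) and the tetraspanin CD63 0.18 (SE 0.058). The groups did not overlap for LAMP2, on the low side, and CD63, on the high side, but neither passed the adjustment in the main fit. With a trended robust prior in limma, the adjusted p was 0.169 for LAMP2 and 0.0043 for CD63. Other LAMP2 probe sets lay between -0.17 and 0.060. The study stained the proteins and reported larger vesicles with CRB3, which RNA levels do not measure.

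Of 8 Rabs of secretory granules and regulated exocytosis, 0 were called. RAB27B, which docks secretory vesicles and exosome-bearing endosomes at the plasma membrane, read 9.66, 9.56 and 9.68 in CRB3-expressing cells and 9.96, 10.07 and 9.94 in vector control cells. The groups did not overlap. The log2 fold change was -0.36 (SE 0.067, limma adjusted p = 0.0217), 1.28-fold lower. Its other 2 probe sets were dimmer, with -0.25 and -0.33, and neither passed the adjustment although their groups did not overlap either.

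RAB27A, the related Rab of melanosomes and lytic granules, gave -0.021 (SE 0.066, 95% interval -0.17 to 0.13), and its 5 probe sets lay between -0.16 and 0.061. Its sign turned without CRB3-expressing replicate 3 or vector control replicate 3. RAB3D, a Rab of exocrine granules, gave 0.11 (SE 0.062), and RAB3B, of neuroendocrine vesicles, one of 0.21 (SE 0.099) at group means of 5.35 and 5.14. The other RAB3D probe set gave -0.060 (SE 0.073), and the other RAB3B probe sets lay between -0.083 and 0.20.

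RAB32 and RAB38, which share the biogenesis of lysosome-related organelles such as melanosomes, differed in opposite directions. RAB32 read 11.09, 11.23 and 10.97 in CRB3-expressing cells and 10.49, 10.79 and 10.63 in vector control cells. RAB38 read 10.02, 10.01 and 9.94 against 10.27, 10.33 and 10.31. In neither gene did the groups overlap, with RAB32 on the high and RAB38 on the low side.

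The log2 fold change of RAB32 was 0.46 (SE 0.095, limma adjusted p = 0.0338), 1.37-fold, and its dim second probe set gave 0.39 (limma adjusted p = 0.0625). That of RAB38 was -0.31 (SE 0.060, limma adjusted p = 0.0246), 1.24-fold lower, from 1 probe set. Both are under the fold threshold. Within an array, RAB32 minus RAB38 was between 1.03 and 1.22 on the log2 scale in CRB3-expressing cells and between 0.22 and 0.46 in vector control cells.

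**Figure D3:**
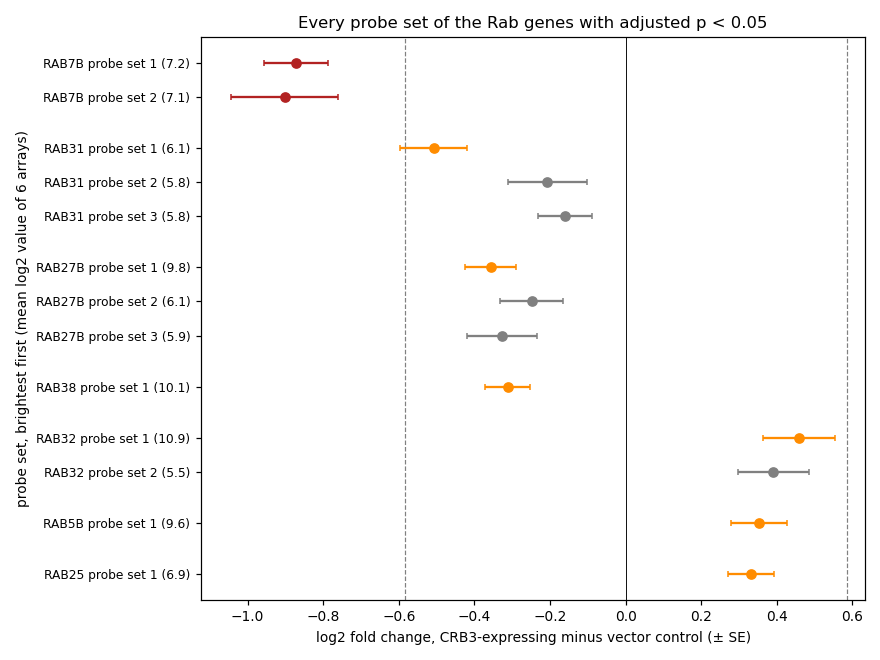
Difference in log2 value with its SE (x axis, CRB3-expressing minus vector control) of every probe set (y axis, brightest first, with its mean log2 value) of the 7 Rab genes with an adjusted p under 0.05; red probe sets are called, orange ones have an adjusted p under 0.05 below the 1.5-fold threshold (dashed lines), and grey ones have neither. The probe sets of a gene lie on the same side of 0, and both of RAB7B lie beyond the threshold, at -0.87 and -0.90.

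Related Rab genes were set against each other within each array in 8 pairs, which were chosen after the values were seen. In 7 of the 8 the CRB3-expressing and vector control arrays did not overlap. The first gene of each pair was already among those with an adjusted p under 0.05 and groups that did not overlap. This count is therefore no separate evidence, and the share among pairs of genes in general was not computed. The change of the pair was -0.88 for RAB7B minus RAB7A, 0.77 for RAB32 minus RAB38, -0.64 for RAB31 minus RAB22A, 0.49 for RAB5B minus RAB5C and -0.34 for RAB27B minus RAB27A. It was 0.19 for RAB5B minus RAB5A and 0.13 for RAB25 minus RAB11A. RAB25 minus RAB11B changed by 0.55 with overlapping groups. An exact two-sided permutation test of 3 arrays against 3 gave p = 0.1 for each of the 7, the smallest it can give, and p = 0.2 for the last, or 0.114 and 0.2 after Benjamini-Hochberg adjustment over the 8 pairs, so none could pass 0.05.

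**Figure D4:**
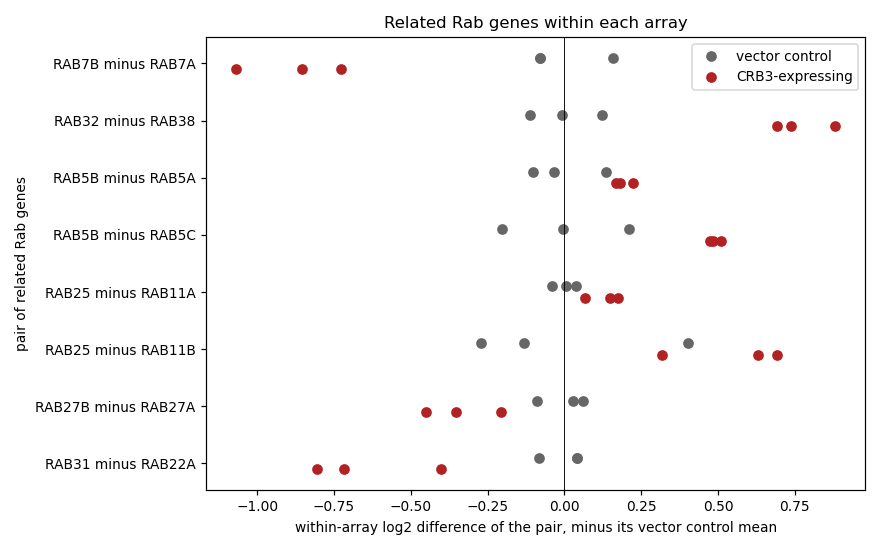
Within-array log2 difference of 8 pairs of related Rab genes (y axis), from which the vector control mean of the pair was subtracted (x axis); each point is an array, grey for vector control and red for CRB3-expressing. The CRB3-expressing arrays lie to the left for RAB7B minus RAB7A, RAB27B minus RAB27A and RAB31 minus RAB22A, and to the right for RAB32 minus RAB38, and they overlap the vector control arrays for RAB25 minus RAB11B.

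Among the Rabs of the exocytic and biosynthetic routes none was called. Of 6 genes of basolateral and apical exocytosis and the cilium, 0 were called, 0 reached an unadjusted p of 0.05 in limma, and the log2 fold changes lay between -0.14 and 0.13. RAB8A and RAB8B, which carry cargo to the basolateral membrane and the cilium, gave 0.13 (SE 0.079) and 0.11 (SE 0.069). RAB10, of basolateral sorting, gave 0.0067 (95% interval -0.13 to 0.15), and RAB13, a Rab of tight junction assembly, 0.032 (95% interval -0.12 to 0.19). The signs of RAB10 and RAB13 turned when a single array was left out, and that of RAB10 also when the arrays were median-centred.

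Of 11 ER and Golgi Rabs, 0 were called and 3 had an unadjusted p under 0.05 from limma with higher values (27.3%, against 10.4% of all genes) and 0 with lower values (against 8.39%). RAB1A, which acts in transport from the ER to the Golgi, had 0.029 on the log2 scale (SE 0.057), negative when shared-transcript probe sets were dropped. RAB1B, its relative, gave 0.096 (SE 0.060). RAB43, of Golgi traffic, read 7.25, 7.31 and 7.23 against 6.98, 7.00 and 7.03. The groups did not overlap, and at 0.26 (SE 0.060) it had an adjusted p of 0.0525 from limma. RAB2B, a Golgi Rab, gave 0.23 (SE 0.072, limma adjusted p = 0.151), and the dim RAB6A probe set 0.090 (SE 0.095). Beside RAB43 and RAB2B, the unadjusted p was under 0.05 for RAB6B, at 0.18 (SE 0.062) in its brightest probe set. Its other probe sets gave 0.029 and -0.062, so its direction is not settled. Of the 3 RAB40 genes, which carry a SOCS box of ubiquitin ligases, 0 were called and 0 had an unadjusted p under 0.05 from limma, with values between -0.075 and 0.10.

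The proteins that act on Rabs were read from lists of 139 genes, which were chosen with earlier results of these data known. Of these genes, 3 were called higher (2.16%, against 1.43% of all genes) and 0 lower (against 0.465%). Without the fold threshold, 8 were higher (5.76%, against 3.37% of all genes) and 0 lower (against 1.77%). Unadjusted p-values from limma were under 0.05 for 25 with higher values (18.0%, against 10.4% of all genes) and 9 with lower values (6.47%, against 8.39%). Their median log2 fold change was 0.019. Of 8 genes of prenylation and the membrane cycle, 40 exchange factors and 38 GTPase-activating proteins, 0 were called. The 3 called genes were among 53 effectors, of which 6 were higher without the fold threshold (11.3%, against 3.37% of all genes). RIMS2, a Rab3 effector of exocytosis, went from a log2 value of 7.02 to 7.96 (log2 fold change 0.95, SE 0.065, limma adjusted p = 7.02e-05). MYO5B, the myosin motor of Rab11 recycling endosomes, went from 9.36 to 10.12 (0.76, SE 0.070). RAB11FIP1, a Rab11 adaptor, went from 8.45 to 9.03 (0.585, SE 0.082). RAB11FIP1 lay at the 1.5-fold line itself and was not called after median-centring (0.57), without CRB3-expressing replicate 2 or 3 (0.58 and 0.51) or without vector control replicate 1 or 3 (0.58 for both). With an ordinary pooled variance its adjusted p was 0.0923, and 2 regulators and effectors were then called higher. SYTL2, a Rab27 effector, was not called in its brightest probe set (0.45, limma adjusted p = 0.0300) but was in its second (0.60, limma adjusted p = 0.0394), both with means under 6. The dimmest probe sets of RIMS2 (-0.071), MYO5B (-0.048) and RAB11FIP1 (0.22) were not called, while another of each was, at 1.98, 0.75 and 0.75.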

How the data were processed

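Total RNA of MCF-10A cells was hybridized to Affymetrix Human Genome U133 Plus 2.0 arrays, 1 per sample, with 3 CRB3-expressing and 3 vector control samples grouped by their titles. Background correction and normalization by the authors used RMA, the Robust Multichip Average, in R, and the deposited values are log2 values for each probe set. RMA versions and detection calls are not given in the sources used here. Precision is limited by having 3 arrays per group.

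The CRB3-expressing samples were compared with the vector control samples in limma 3.58.1 (lmFit, then eBayes; R 4.3.3). Its p-values were adjusted by Benjamini-Hochberg over 54613 probe sets, from which 62 controls of the array had been removed. Of these, 41091 carry 1 gene symbol in the platform annotation, 1801 carry several and 11721 have none. Symbols were checked against RefSeq (GRCh38.p14), where 0 changed and 54 probe sets had no match. Promoter windows came from the same RefSeq release. The thresholds for a call were taken from the methods of the study. The steps were tested on simulated data.

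The members, role groups, lists and pairs were chosen with earlier results of these data known. The genes named were Rab genes with a called probe set, the 6 highest and the 6 lowest log2 fold changes, 26 Rab genes taken whatever their values, regulators and effectors called in their brightest probe set, CRB3 and the stained vesicle markers. RAB1B, RAB4B, RAB6B, RAB12, RAB15, RAB24, RAB35, RAB39A, RAB39B and SYTL2 fall outside this rule and were named after their values were seen. Lists are described by counts and medians, without set tests. The alternatives tried were a replicate block, a trended robust prior, an ordinary variance, median-centring, quantile normalization, a filter on means under 6, leaving out each array, array weights, other fold rules and other ways to pick the probe sets of a gene.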

Additional observations from a re-analysis of the deposited data

How the results depend on the processing

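RAB7B kept its direction under all 17 alternatives run, with log2 fold changes between -0.94 and -0.82, and had an adjusted p under 0.05 from limma in all 6 fits without 1 array. It was not called with an ordinary pooled variance or by treat against a 1.5-fold change (adjusted p = 0.714), so that both then gave 0 Rab genes and 0 Rab probe sets lower. For all genes, the ordinary variance gave 174 higher and 46 lower, and treat 98 higher and 15 lower, with 0 regulators and effectors higher. With no fold threshold, 3 Rab genes and 3 Rab probe sets were higher, and 4 Rab genes and 5 Rab probe sets lower. By that rule 8 regulators and effectors were higher (5.76%, against 3.37% of all genes), and 666 genes were higher and 351 lower in all. With the mean over the probe sets of a gene, 59 genes were lower and 1 regulator or effector higher.

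Leaving out 1 array at a time gave 1 to 2 Rab genes called lower (2 without CRB3-expressing replicate 2) and 0 higher. Outside RAB7B, the smaller differences were less firm. Of the 6 fits without 1 array, the adjusted p from limma was under 0.05 in 3 for RAB31, 2 for RAB32, 1 each for RAB5B, RAB25 and RAB27B, and 0 for RAB38, and the highest values were 0.0632, 0.126, 0.131, 0.0726, 0.0897 and 0.0939 in that order. With an ordinary pooled variance the adjusted p was 0.155, 0.210, 0.160, 0.0389, 0.0949 and 0.0459 in the same order, and by treat 1 for each. The fits without 1 array hold fewer samples. With the trended robust prior, the adjusted p from limma of these genes was 0.0062, 0.0024, 0.0044, 0.015, 0.0016 and 0.0013 in the same order. Their directions held under every alternative that gave a value. The trended robust prior also gave RAB11A (0.0025), RAB5A (0.039), RAB43 (0.046) and CD63 (0.0043) a limma adjusted p under 0.05. All were below the fold threshold. RAB29 (0.063), RAB2B (0.066), RAB9B (0.12), RAB5C (0.17) and LAMP2 (0.17) stayed above 0.05 there.

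Whether same-numbered replicates belong together is not given in the sources used here. The correlations of their deviations from the group means, across probe sets, were -0.085, 0.064 and 0.029. The highest of all pairs was 0.16, between CRB3-expressing replicate 3 and vector control replicate 1. CRB3-expressing replicate 1 correlated best with vector control replicate 2 (0.13). With 3 arrays per group, such correlations cannot show whether the samples are paired. With the replicate block, 1 Rab gene and 2 Rab probe sets were lower as before, and RAB7B had an adjusted p of 0.00307. It left the adjusted p under 0.05 for RAB31 (0.0290) and RAB32 (0.0286), and gave 0.0578 for RAB25, 0.0639 for RAB5B, 0.0706 for RAB27B and 0.0735 for RAB38.

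Of the 31 Rab genes and 7 other genes followed through the alternatives, 8 turned sign, with log2 fold changes of at most 0.13 in size and no call. Median-centring gave -0.0062 for RAB10 and -0.0034 for RAB7A. RAB21 had 0.011 after quantile normalization and 0.0022 with array weights, RAB22A -0.023 as the mean over probe sets, and RAB1A -0.012 without shared probe sets. Without 1 array, the ranges were -0.015 to 0.036 for RAB10, -0.0020 to 0.079 for RAB13, -0.026 to 0.041 for RAB7A, -0.012 to 0.073 for RAB17, -0.061 to 0.035 for RAB21 and -0.048 to 0.021 for RAB27A. RAB31 has no probe set outside the shared kind and gave no value there. The causes were not tested.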

Other observations

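Of the 11 probe sets that name a Rab gene beside other genes, 0 were called. The probe set of RAB43 and the readthrough ISY1-RAB43 had a log2 fold change of 0.37 (SE 0.070, limma adjusted p = 0.0220), higher than the 0.26 of the probe set of RAB43 alone and under the fold threshold. The 3 probe sets of RAB4B and the readthrough MIA-RAB4B had log2 fold changes of 0.19, 0.26 and 0.24, and the one also shared with EGLN2 had -0.065. Both probe sets of RAB34, shared with NARR, had log2 fold changes of -0.065 and -0.071 at means above 12. The 3 that RAB6A shares with its copy RAB6D had 0.084, 0.046 and 0.046, and the 1 that also names RAB6C had 0.014.

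Probe sets of a gene did not always lean the same way. Of the 35 Rab genes with 2 or more probe sets, 16 had log2 fold changes of 1 sign in all of them. RAB29, for example, had -0.17 and -0.35 in its brighter probe sets and 0.14 in the third.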
